A study of Rattus norvegicus with 138 samples.

Results

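The genes described here are 9 transcription factors that give hindbrain neurons their identity: Phox2a, Tlx3, Lmx1b, Pax2, Zic1, Zic2, Zic4, Pbx3 and Lbx1. They were chosen by symbol, 9 of the 32883 genes in each of 3 count tables, and every symbol was found in all 3. RNA was sequenced from punches of the nucleus of the solitary tract (NTS), the caudal ventrolateral medulla (CVLM) and the rostral ventrolateral medulla (RVLM) of 46 female rats, 1 library per region and rat. There were 18 normotensive Wistar-Kyoto (WKY, substrain WKY/NHsd) rats, 5 of them aged 8 wk, 4 aged 10 wk and 3 each aged 12, 16 and 24 wk, and 28 spontaneously hypertensive rats (SHR, substrain SHR/NHsd), 5 each aged 8 and 10 wk and 6 each at the 3 later ages. Both are inbred strains, so each strain is 1 genotype, and a punch pools both sides of the medulla and all cell types in it. The study followed both strains across the ages at which blood pressure rises in the SHR.

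The hindbrain builds its neurons from stacked bands of progenitors, and each band is marked by its own transcription factors, many of which stay on in the adult neuron. Lbx1 marks dorsal interneurons, among which Tlx3 and Lmx1b favour the glutamatergic fate and Pax2 the GABAergic and glycinergic fate. Tlx3 and Lmx1b are also needed for the relay neurons of the NTS, Lmx1b for serotonin neurons, and Phox2a for noradrenergic neurons. Zic1, Zic2 and Zic4 are zinc finger proteins of the dorsal neural tube and its derivatives. Pbx3 is a TALE homeodomain protein that binds DNA together with Hox and Meis partners, and the loss of Pbx3 or Tlx3 in mice disturbs central breathing control.

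Library totals ran from 5904581 to 17889417 counts with a median of 10143036.5. Levels are given as CPM, counts relative to the library total after scaling the libraries of all regions together, and are not divided by gene length, so a level is compared only between libraries and never between genes. Of the 9 factors, 4 passed the low count filter somewhere: Pbx3 and Zic4 in all 3 regions, Lbx1 in the NTS and CVLM, and Zic1 in the NTS. Phox2a, Tlx3, Lmx1b, Pax2 and Zic2 passed in none. Known markers separated the regions: Dbh, the noradrenaline-making enzyme, averaged 67.5 CPM for the NTS, 82.6 for the CVLM and 11.9 for the RVLM, and Pnmt, the adrenaline-making enzyme, averaged 4.57, 42.9 and 23.8 in that order. The RVLM punches thus held less Pnmt than the CVLM punches, and they held the most Chat, the acetylcholine-making enzyme of motor neurons, at 240 CPM against 62.1 in the NTS and 18.1 in the CVLM. In 9 libraries the summed level of 7 markers of the choroid plexus, the fluid-secreting tissue of the ventricle beside the NTS, passed 20 CPM, namely 5 NTS and 3 CVLM libraries, all of WKY, and 1 RVLM library of SHR. The summed level in the NTS ran from 2.99 to 4450 CPM in WKY, with a median of 5.86, and from 3.2 to 11.6 CPM in SHR, with a median of 5.35. For 2 CVLM libraries, 1 per strain, the title gives 8 wk and the age label 10 wk, and they were placed by the title. Library names in the tables end in 1 for 32 rats and in 2 for 14 rats, among them all 9 rats of 10 wk, and what this number stands for was not stated.

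Promoters of Zic4, Tlx3 and Lbx1, whose levels are described below, are printed here, from RefSeq (GRCr8, 250 bases before to 50 after the start, along the gene's own strand), to show how unlike the 3 sequences are. Capitals mark TAAT or its reverse complement ATTA, the core letters that many homeodomain proteins bind. They cover chr8:100795852-100796151 on the plus strand for Zic4, chr10:18296502-18296801 on the minus strand for Tlx3 and chr1:254034777-254035076 on the minus strand for Lbx1.
Zic4: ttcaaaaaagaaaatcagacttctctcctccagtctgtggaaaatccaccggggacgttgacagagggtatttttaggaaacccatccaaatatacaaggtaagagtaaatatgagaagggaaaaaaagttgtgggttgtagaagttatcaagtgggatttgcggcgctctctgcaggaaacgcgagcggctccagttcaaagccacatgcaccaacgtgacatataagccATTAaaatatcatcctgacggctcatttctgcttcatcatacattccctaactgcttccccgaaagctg
Tlx3: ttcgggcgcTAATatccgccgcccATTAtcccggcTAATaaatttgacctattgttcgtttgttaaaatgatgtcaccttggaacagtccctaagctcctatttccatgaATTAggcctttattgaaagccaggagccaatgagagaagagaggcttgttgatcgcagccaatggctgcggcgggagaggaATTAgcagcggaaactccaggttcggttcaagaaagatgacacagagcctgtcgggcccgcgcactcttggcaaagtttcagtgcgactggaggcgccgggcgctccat
Lbx1: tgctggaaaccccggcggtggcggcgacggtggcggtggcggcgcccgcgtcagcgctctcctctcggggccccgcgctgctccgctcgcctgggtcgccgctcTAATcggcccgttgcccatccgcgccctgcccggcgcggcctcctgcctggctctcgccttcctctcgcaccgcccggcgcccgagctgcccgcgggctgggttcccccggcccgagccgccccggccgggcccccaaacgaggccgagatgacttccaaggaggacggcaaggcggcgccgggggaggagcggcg
Of the 9 factors, 7 had a promoter in the table, all but Pbx3 and Zic1. The Zic4 window held 44% G and C, below the median of 51.7% over 33469 promoters, whereas the Lbx1 window held 78.7%. TAAT in either direction stood 5 times in the Tlx3 window, a count reached by 7.83% of all promoters. It stood 1 time each in those of Zic4 and Lbx1, and 60.6% of promoters held it at least once. TGATNNAT, a site of the kind that Pbx proteins bind, was found in none of the 7 windows and in 9.1% of all promoters. A match is only a run of letters and says nothing of binding.

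Pbx3 was the factor that separated the strains. It was lower in SHR than in WKY in every region and at every age, and in each region all 28 SHR libraries lay below all 18 WKY libraries. The share of all genes whose strains were separated this fully was not counted. In the CVLM the 18 WKY libraries ran from 99.52 to 155.8 CPM with a median of 116.9, and the 28 SHR libraries from 28.14 to 50.82 CPM with a median of 40.56. In the RVLM the WKY libraries ran from 55.51 to 128.2 CPM (median 78.51) and the SHR libraries from 23.19 to 45.84 CPM (median 32.15). In the NTS the WKY libraries ran from 74.1 to 131.3 CPM (median 92.15) and the SHR libraries from 44.43 to 74.03 CPM (median 52.01). The ranges were far apart in the CVLM and nearly met in the NTS.

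**Figure D1:**
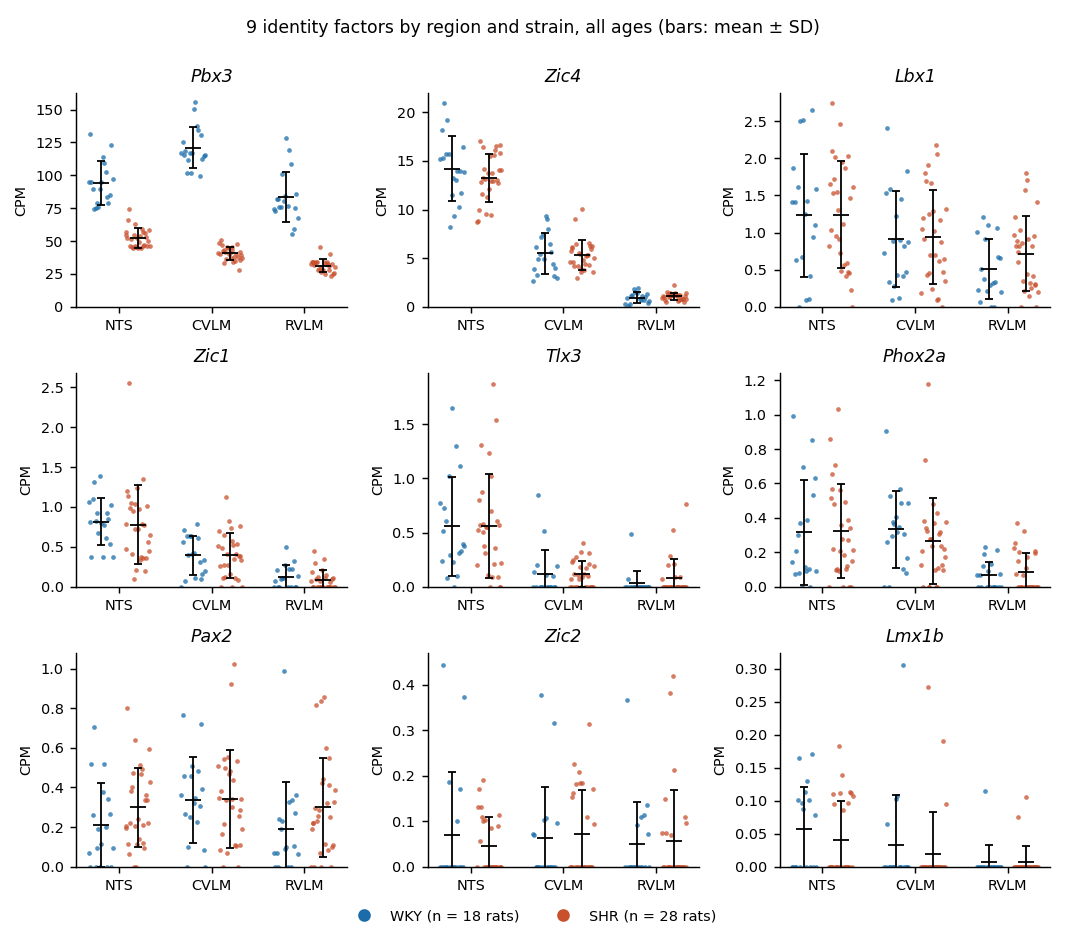
Levels of the 9 factors in CPM (vertical axes, from 0, each gene on its own scale) by region, in WKY (blue, 18 rats) and SHR (orange, 28 rats) of all ages. Points are libraries and bars mark the mean ± SD, cut off at 0. Pbx3 is lower in every SHR library than in any WKY library of the same region, and Zic4 falls from the NTS (mean 13.64 CPM) to the CVLM (5.393 CPM) and the RVLM (1.021 CPM) in both strains.

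Averaged over the 5 ages, the log2 difference of Pbx3, SHR minus WKY, was -0.82 ± 0.0572 (SE) for the NTS, -1.58 ± 0.0496 for the CVLM and -1.45 ± 0.0669 for the RVLM, with 18 WKY and 28 SHR rats. That is 1.77-fold, 2.99-fold and 2.73-fold lower (edgeR's quasi-likelihood test with Benjamini-Hochberg adjustment over all genes, adjusted p = 2.38e-15, 2.01e-27 and 2.76e-21). By the same test 5.45%, 5.91% and 5.06% of all genes tested in the NTS, CVLM and RVLM were lower in SHR. Ranked by p, Pbx3 was gene 88 of 13793 for the NTS, gene 16 of 13408 for the CVLM and gene 33 of 13411 for the RVLM. Because these are bulk samples, fewer cells that express a gene and less RNA per cell cannot be told apart.

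The difference was called at each of the 15 combinations of region and age. In the NTS the log2 difference was -0.88, -0.73, -0.57, -0.84 and -1.09 from the youngest to the oldest age, where 2.82%, 1.89%, 2.08%, 0.877% and 1.31% of all genes were called lower in SHR. In the CVLM it was -1.65, -1.38, -1.44, -1.56 and -1.86, against 3.95%, 1.66%, 1.28%, 1.17% and 3.3% of all genes. In the RVLM it was -1.32, -1.23, -1.31, -1.77 and -1.61, against 5.64%, 1.22%, 0.828%, 0.82% and 1.15%. At no region and age did a SHR library reach the lowest WKY library. The 10 wk comparison holds only rats whose library names end in 2 and the 16 wk comparison only rats whose names end in 1, so the difference was present within either set. The smallest value was that of the NTS at 12 wk, where 3 WKY rats had 74.1, 75.04 and 78.95 CPM and 6 SHR had 46.11, 51.91, 45.7, 44.43, 54.44 and 63.05 CPM (adjusted p = 0.00649). This call was lost without WKY replicate 3 (highest adjusted p over all rats left out, 0.0505). Of these 3 WKY libraries, 2 held choroid plexus markers, and with the 9 such libraries left out, which leaves 1 WKY rat at this age whose spread is taken from the other groups, the log2 difference was -0.54 (adjusted p = 0.334).

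**Figure D2:**
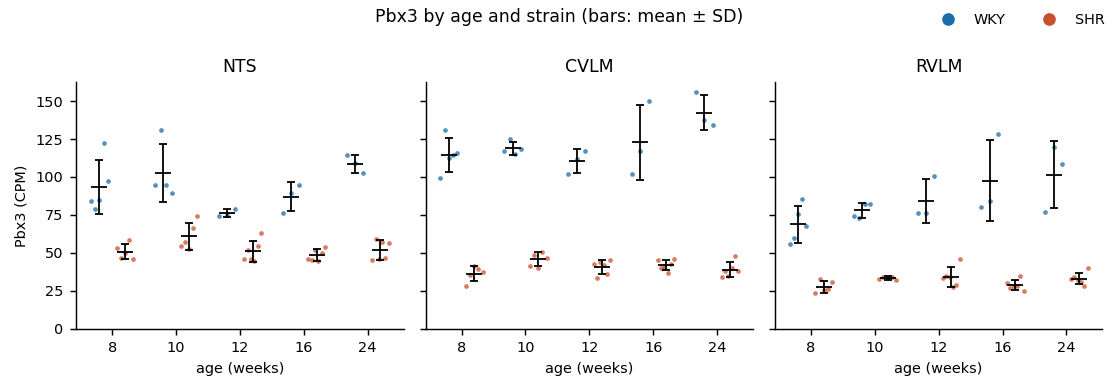
Pbx3 in CPM (vertical axis, from 0, shared by the panels) against age in weeks (horizontal axis, evenly spaced groups), by region, in WKY (blue) and SHR (orange). Points are rats and bars mark the mean ± SD of 3 to 6 rats. The strains stay apart at all 5 ages, with the widest gap in the CVLM at 24 wk (means 142.5 and 38.85 CPM).

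Whether the strain difference of Pbx3 changed with age was tested too. No call was made in any region (edgeR F test, adjusted p = 0.467 for the NTS, 0.403 for the CVLM and 0.843 for the RVLM, with 0.0145%, 0% and 0.00746% of all genes called; unadjusted p = 0.103, 0.0422 and 0.0805). Within WKY, mean Pbx3 in the CVLM was 114.7, 119, 110.3, 122.9 and 142.5 CPM from 8 to 24 wk, and in the RVLM 68.69, 77.89, 84.27, 97.56 and 101.5 CPM. Within SHR the RVLM means were 27.51, 33.34, 34.03, 28.67 and 33 CPM. The 5 ages did not differ past the threshold within either strain in any region (lowest adjusted p = 0.0728, WKY in the RVLM, and 0.0423 in the lowest of the 46 fits that left out 1 rat, and 0.0311 with the DESeq2 test).

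The order of the regions for Pbx3 depended on the strain. In WKY the CVLM was highest: mean levels were 120.9 ± 15.59 CPM (SD, n = 18) in the CVLM, 94.03 ± 16.61 in the NTS and 83.62 ± 19.22 in the RVLM. In SHR the NTS was highest: mean levels were 52.35 ± 7.305 CPM (SD, n = 28) for the NTS, 40.58 ± 5.176 for the CVLM and 31.37 ± 4.73 for the RVLM. Within single rats, the NTS lay above the CVLM in 2 of 18 WKY rats and in 27 of 28 SHR. The NTS lay above the RVLM in 11 of 18 WKY rats and in all 28 SHR.

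With each rat as a block, the log2 difference of the NTS minus the CVLM was -0.39 ± 0.0543 (SE) in WKY (edgeR, adjusted p = 3.34e-09; 53.3% of all genes called in either direction) and 0.37 ± 0.0454 in SHR (adjusted p = 3.21e-11; 56.4%). The test of the difference between the strains gave 0.76 ± 0.0708 (adjusted p = 1.98e-13), a call that 0.427% of all genes had. For the NTS minus the RVLM, the log2 difference was 0.13 ± 0.0548 in WKY (adjusted p = 0.0324; 62.8% of all genes called) and 0.75 ± 0.046 in SHR (adjusted p = 2.31e-25; 65.1%), and the strains differed by 0.62 ± 0.0715 (adjusted p = 1.03e-09; 1.92%). For the CVLM minus the RVLM, it was 0.52 ± 0.0546 in WKY (39.3%) and 0.37 ± 0.0466 in SHR (45.6%), and the difference between the strains was not called (-0.15 ± 0.0717, adjusted p = 0.963; 0.328%). Pbx3 thus stood lower in SHR by less in the NTS than in either ventrolateral region. Without the 9 libraries that held choroid plexus markers, the strains differed by 0.70 for the NTS minus the CVLM (adjusted p = 4.23e-09) and by 0.59 for the NTS minus the RVLM (adjusted p = 1.14e-06).

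Other cell markers moved with strain as well. In the NTS, 3 of the 6 choroid plexus markers tested were lower in SHR, led by Ttr, a thyroid hormone carrier (log2 difference -6.79; 395 CPM in WKY and 0.328 CPM in SHR). Other markers of this tissue went the other way: Kl was higher in SHR in the CVLM (1.97, adjusted p = 3.21e-08), 1 of 3 tested there, and Slc4a5 in the RVLM (0.65, adjusted p = 0.0354), 1 of 2. Without the 9 libraries that held choroid plexus markers, the log2 difference of Pbx3 was -0.84, -1.57 and -1.47 in the NTS, CVLM and RVLM. The part of the choroid plexus in the Pbx3 difference was not tested. Mobp, a myelin gene, was lower in SHR in all 3 regions (log2 difference -0.72, -0.97 and -0.94), and 1, 2 and 2 of the 5 oligodendrocyte markers fell in the NTS, CVLM and RVLM. The summed level of the 5 ran from 17500 to 41800 CPM in WKY and from 18900 to 45000 CPM in SHR in the NTS. It ran from 37500 to 73200 and from 37800 to 63500 CPM in the CVLM, and from 33100 to 65700 and from 31400 to 51500 CPM in the RVLM, so the strains overlapped. The part of oligodendrocytes in the Pbx3 difference was not tested. Among the neuronal markers, Gad1, a GABA-making enzyme, was lower in SHR in the NTS (log2 difference -0.23), 1 of 5 inhibitory markers tested, and no noradrenergic, serotonergic, cholinergic or glutamatergic marker was called in any region. Of the granule neuron markers, Etv1 was lower in SHR in the CVLM (-0.31, adjusted p = 1.66e-05) and the RVLM (-0.28, adjusted p = 0.000267), and Cbln3 was higher in the CVLM (0.81, adjusted p = 0.000183). The other markers called were ependymal Ccdc153, lower in SHR in the NTS (-1.77, adjusted p = 4.36e-05), leptomeningeal Slc6a20, higher in the CVLM (0.27, adjusted p = 0.0349), and astrocytic Aldh1l1, higher in the RVLM (0.36, adjusted p = 0.00167). Their part in the Pbx3 difference was not tested.

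No tested gene beside Pbx3 had a strain difference of its size. Of the 5 protein coding genes on each side in GRCr8 order, chosen after the values were seen, 9 were tested. None was called lower in SHR in any region, where 5.45%, 5.91% and 5.06% of all genes were in the NTS, CVLM and RVLM. No call among 9 genes is near those shares. Higher in SHR were 5.54%, 5.94% and 5.76% of all genes. The adjacent Mapkap1, a subunit of the mTOR complex, was higher in SHR by 0.17 on the log2 scale in the NTS (adjusted p = 0.0132) and by 0.17 in the CVLM (adjusted p = 0.0171). Angptl2, a secreted protein 5 genes away, was higher by 0.54 in the CVLM (adjusted p = 0.00576) and by 0.41 in the RVLM (adjusted p = 0.00923). Lmx1b, which lies 2 genes from Pbx3, was below the filter.

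**Figure D3:**
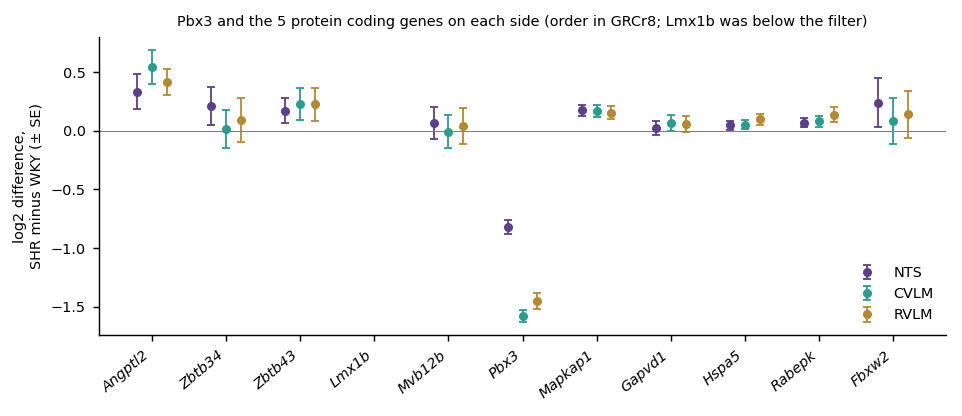
Log2 difference, SHR minus WKY over the 5 ages (vertical axis), of Pbx3 and its neighbours in gene order (horizontal axis), in the NTS, CVLM and RVLM (18 WKY and 28 SHR rats each). Points are estimates and bars their SE. Pbx3 lies between -1.58 and -0.82, and the other tested genes lie between -0.00727 and 0.54.

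Zic4 and Zic1 differed between the regions in both strains. Zic4 followed 1 order in every rat: the NTS above the CVLM above the RVLM in 46 of 46. The 46 NTS libraries ran from 8.168 to 20.91 CPM (median 13.76), the CVLM libraries from 2.66 to 10.07 CPM (median 5.276) and the RVLM libraries from 0.06826 to 2.228 CPM (median 1.091). Every NTS library thus lay above every RVLM library, and the NTS and CVLM ranges overlapped only between 8.168 and 10.07 CPM. How many of all genes had 1 order in every rat, or libraries separated this fully, was not counted. Within a rat the NTS level was at least 5.32 times the RVLM level, with a median of 12.7 times.

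In the fit over all libraries with rat as a block, Zic4 was higher in the NTS than the RVLM by 3.84 ± 0.0847 (log2, SE; 14.3-fold, edgeR, adjusted p = 6.96e-55), a call in this direction that 36.4% of all genes had. It was higher in the NTS than the CVLM by 1.31 ± 0.0613 (2.48-fold, adjusted p = 1.71e-32; 34% of all genes) and in the CVLM than in the RVLM by 2.53 ± 0.098 (5.77-fold, adjusted p = 7.66e-38; 26.8%). Ranked by p, Zic4 was gene 19 of 14043 for the NTS minus the RVLM. The difference in the region order between the strains was not called (log2 difference of differences -0.33 ± 0.216 for the NTS minus the RVLM, adjusted p = 0.559).

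Zic1, which lies next to Zic4, showed the same order of mean levels at a lower count, and the full order within 26 of 46 rats. The NTS libraries had a median of 8 reads and ran from 0.1033 to 2.548 CPM, the CVLM libraries from 0 to 1.125 CPM and the RVLM libraries from 0 to 0.4972 CPM. All 46 NTS libraries had a read, against 42 for the CVLM and 25 for the RVLM. Within rats, the NTS was above the RVLM in 46 of 46 and above the CVLM in 35, and the CVLM was above the RVLM in 37. Because Zic1 passed the filter only in the NTS, where it was highest, its regions were compared in the fit of all 23732 genes with a read, to which the filter was not applied. There the log2 difference was 3.16 ± 0.285 (SE) for the NTS minus the RVLM (edgeR, adjusted p = 2.84e-19; 23.8% of genes higher), 0.99 ± 0.196 for the NTS minus the CVLM (adjusted p = 7.8e-06; 21.4%) and 2.17 ± 0.338 for the CVLM minus the RVLM (adjusted p = 2.31e-08; 16.3%). The spans of Zic1 and Zic4 overlap in GRCr8, and whether the counts used strand was not stated, so reads of either gene could have been given to the other.

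Zic2, on another chromosome, was barely read. It had 31 reads in all for the NTS, 34 for the CVLM and 27 for the RVLM, and a read in 16, 18 and 15 of 46 libraries. No region difference was called for it in the fit of all genes with a read (adjusted p = 1 in the 3 comparisons), and at these counts a difference was not detectable. Taking 3 reads as the limit, a count of 0 allowed a level of up to 0.494, 0.508 and 0.445 CPM in the shallowest NTS, CVLM and RVLM library, which covers counting error only.

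Other cells known to express Zic genes are those of the leptomeninges and cerebellar granule neurons. The summed level of the 10 leptomeningeal markers ran from 35.7 to 110 CPM for the NTS, from 35.4 to 70.1 for the CVLM and from 29.5 to 151 for the RVLM, with medians of 52.2, 45.8 and 53.3 CPM. The summed level of the 6 granule neuron markers ran from 49.9 to 89.4, from 60.8 to 109 and from 53.4 to 112 CPM in that order, with medians of 69.6, 73.8 and 74.1 CPM. The ranges of the regions overlapped for both lists. Of the 6 ependymal markers tested, 5 were higher in the NTS than the RVLM, as were 36.4% of all genes. Some of the 6 passed the filter only in the NTS, so the filter partly set their direction and the 2 shares are not alike. The summed level of the ependymal markers ran from 32.9 to 147 CPM in the NTS and from 8.28 to 27.1 CPM in the RVLM. The part of leptomeninges, granule neurons or ependyma in the Zic values was not tested.

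Over all ages, no Zic gene was called between the strains. The ratio of SHR to WKY for Zic4 was 0.952 (95% interval 0.853 to 1.06) for the NTS, 0.966 (0.814 to 1.15) for the CVLM and 1.17 (0.927 to 1.49) for the RVLM. For Zic1 in the NTS it was 0.934 (0.677 to 1.29). Among single ages, Zic4 was called once, in the NTS at 10 wk. The 4 WKY rats had 15.23, 18.16, 15.27 and 20.91 CPM, and the 5 SHR had 8.685, 8.771, 9.926, 17.05 and 12.81 CPM. A single SHR thus lay among the WKY rats and the other 4 below them (log2 difference -0.58 ± 0.173, edgeR, adjusted p = 0.0438). Leaving out 1 rat ended the call for 7 of the 9 rats of this age, all but WKY replicate 1 and SHR replicate 4 (adjusted p up to 0.159). It was also lost without the libraries that held choroid plexus markers, among them the WKY library of 20.91 CPM (log2 difference -0.50, adjusted p = 0.158). In the RVLM at 10 wk the fitted direction was the opposite, with means of 0.3762 CPM in WKY and 0.8249 CPM in SHR, and no call (log2 difference 1.15, adjusted p = 0.192). Without WKY replicate 2, the highest WKY rat at 0.8794 CPM, it was 1.99 and called (adjusted p = 0.00434).

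Within WKY, Zic4 varied with age in both ventrolateral regions. In the CVLM, levels were 5.614, 4.432, 3.154, 3.988 and 2.915 CPM at 8 wk and 2.66, 3.903, 6.13 and 3.27 CPM at 10 wk. They were 4.966, 5.403 and 7.188 CPM at 12 wk, 7.513, 4.896 and 9.3 CPM at 16 wk and 9.024, 8.028 and 6.418 CPM at 24 wk. The lowest level at 24 wk was thus above the highest at 8 and 10 wk. The 5 ages differed (edgeR F test, adjusted p = 0.0248), as they did for 21.1% of all genes within WKY in the CVLM. In SHR the CVLM means were 5.424, 5.425, 5.388, 5.249 and 5.2 CPM, with no call (adjusted p = 0.998; 20.5% of all genes). Whether the strains differed in this course was not called (adjusted p = 0.376, unadjusted p = 0.0264).

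In the RVLM of WKY, Zic4 averaged 0.7871, 0.3762, 1.383, 1.6 and 0.8598 CPM from 8 to 24 wk (adjusted p = 0.0171; 7.02% of all genes). The lowest group, at 10 wk, had 0.2694, 0.8794, 0.06826 and 0.2876 CPM, the third of which was 1 read. In SHR the RVLM means were 0.921, 0.8249, 1.274, 1.402 and 0.8713 CPM, with no call (adjusted p = 0.214; 14.3%). In the NTS the ages were not called in WKY (adjusted p = 0.0573; 12.7%) or in SHR (adjusted p = 0.299; 18.8%). With the replicate number as a block both were called (adjusted p = 0.0076 in WKY and 0.0279 in SHR), and 11 of the 46 fits that left out 1 rat called the ages in WKY (lowest adjusted p = 0.0372). Both calls in WKY were lost once the number that ends the library names was a term of the fit (adjusted p = 0.57 for the CVLM and 0.491 for the RVLM). All rats of 10 wk carry the number 2, so their age was told apart from the number only through groups holding both numbers. Within WKY only the 8 wk group held both. There, in the CVLM, every rat of number 1 had more Zic4 than any rat of number 2. The CVLM call was also lost without the 2 libraries whose age labels conflict (adjusted p = 0.0512), and without either of 2 WKY rats, replicate 4 of 10 wk and replicate 1 of 24 wk. The RVLM call was lost without WKY replicate 1 of 10 wk.

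**Figure D4:**
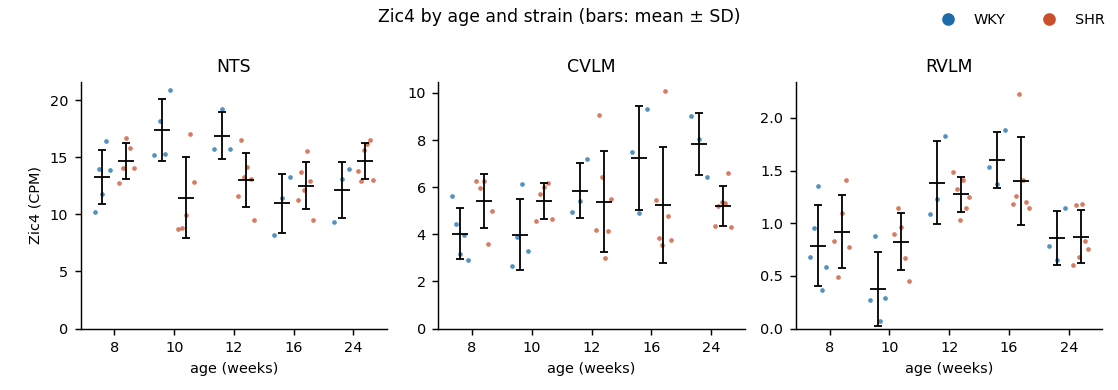
Zic4 in CPM (vertical axes, from 0, each region on its own scale) against age in weeks (horizontal axes, evenly spaced groups), in WKY (blue) and SHR (orange). Points are rats and bars mark the mean ± SD of 3 to 6 rats. The CVLM means of WKY run from 4.02 CPM at 8 wk to 7.823 CPM at 24 wk, while those of SHR stay between 5.2 and 5.425 CPM.

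Lbx1 and Tlx3, the pair of dorsal interneuron factors whose promoters are printed above, were read more in the NTS than the RVLM. Lbx1 averaged 1.237 ± 0.7543 CPM (SD, n = 46) for the NTS, 0.9284 ± 0.63 for the CVLM and 0.6353 ± 0.4724 for the RVLM. The NTS was above the RVLM in 40 of 46 rats and above the CVLM in 30, and the CVLM above the RVLM in 27. Lbx1 did not pass the filter in the RVLM, where it was lowest, so its regions too were compared in the fit of all 23732 genes with a read. The log2 difference was 1.11 ± 0.213 (SE) for the NTS minus the RVLM (edgeR, adjusted p = 3.55e-06; 23.8% of genes higher) and 0.74 ± 0.223 for the CVLM minus the RVLM (adjusted p = 0.0052; 16.3%). Between the NTS and the CVLM, in both of which it passed, it was not called (0.37 ± 0.179, adjusted p = 0.0933), although 7 of the 46 limma fits of the genes kept that left out 1 rat called it (adjusted p from 0.0267 to 0.324).

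Tlx3 did not pass the filter. It had 301 reads over the 46 NTS libraries, 56 over the CVLM libraries and 27 over the RVLM libraries, and at least 1 read in 42, 24 and 10 of them. NTS levels ran from 0 to 1.871 CPM with a median of 0.5122 CPM, and the medians of the CVLM and RVLM were 0.06949 and 0 CPM. The NTS was above the RVLM in 41 of 46 rats, and above the CVLM in 41. In the same fit, where 23.8% and 21.4% of genes were higher in the NTS than the RVLM and CVLM, Tlx3 was called in both comparisons (adjusted p = 7.15e-13 and 8.37e-09). The CVLM and RVLM were not told apart (adjusted p = 1; 16.3% of genes higher in the CVLM).

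Across rats, Tlx3 and Lbx1 rose and fell together in the NTS. Each rat's log2(CPM + 0.5) was taken as its difference from the mean of its strain and age. For these deviations Pearson's r was 0.755 and Spearman's rho 0.736 over 46 rats (permutation test within groups of strain and age, 100000 resamples, two-sided, p = 1e-05 for both, the smallest these permutations can give). Adjusted over the 48 relations computed, which were 16 pairs of genes in 3 regions, p was 0.00048 for both, and no other relation was called. The 2 factors lay on the same side of their group means in 34 of 46 rats. Without the 2 rats farthest from the median of Tlx3, r was 0.719. Among the 32 rats whose library names end in 1, r was 0.838, and among the 14 whose names end in 2 it was 0.0985, so the relation did not hold within the second set. In the CVLM r was 0.468 (adjusted p = 0.113, permutation test) and in the RVLM 0.491 (adjusted p = 0.148, permutation test), where it fell to 0.34 without the 2 farthest rats.

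**Figure D5:**
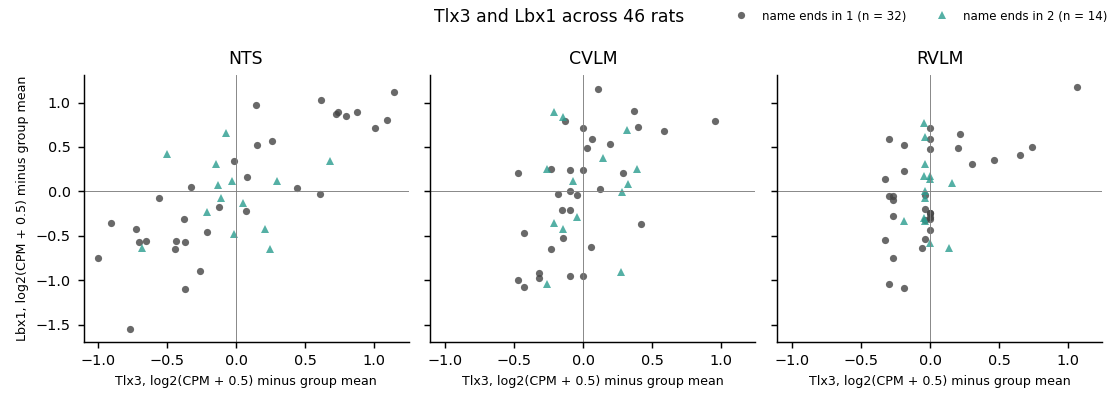
Deviation of Lbx1 (vertical axes) against that of Tlx3 (horizontal axes) from the mean of the rat's strain and age, both as log2(CPM + 0.5), in 46 rats per region. Circles are the 32 rats whose library names end in 1 and triangles the 14 whose names end in 2. In the NTS the circles run along a rising line (r = 0.838) and the triangles do not (r = 0.0985).

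Tlx3 with Slc17a6, a vesicular glutamate transporter, gave an r of -0.369 in the NTS (rho = -0.39, adjusted p = 0.156, permutation test), which was not called. Tlx3 with Lmx1b gave 0.393 in the NTS (rho = 0.415, adjusted p = 0.174, permutation test). The other pairs were not called in any region, among them Phox2a with Dbh and with Th, Pax2 and Lbx1 with Slc32a1, the vesicular GABA transporter, and the pairs of Zic genes.

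Phox2a, Pax2 and Lmx1b were below the filter in all regions. Phox2a averaged 0.3189 ± 0.2828 CPM (SD, n = 46) for the NTS, 0.2919 ± 0.239 for the CVLM and 0.07671 ± 0.1021 for the RVLM, and had a read in 40, 39 and 21 of 46 libraries. It was above the RVLM level in the NTS of 37 rats and in the CVLM of 33, and it was called in both comparisons in the fit of all genes with a read (adjusted p = 2.92e-07 and 1.28e-07). The NTS and CVLM were not told apart (21 of 46 rats, adjusted p = 1). The level of Dbh, which Phox2a regulates, was also lowest in the RVLM, as given above. Pax2 averaged 0.2637, 0.3405 and 0.2575 CPM in the NTS, CVLM and RVLM with no region called (lowest adjusted p = 0.136, CVLM minus RVLM). Lmx1b had 22 reads for the NTS, 12 for the CVLM and 3 for the RVLM, in 19, 7 and 3 of 46 libraries, with no call (adjusted p = 1).

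In the NTS and CVLM, where it passed the filter, Lbx1 was not called between the strains over all ages or at any single age. Tlx3, Phox2a, Pax2, Lmx1b and Zic2 were in no main strain fit. In the fits without the filter neither these 5 nor Lbx1 in the RVLM were called. Their median count was at most 5 reads in any of these regions, so this is no evidence of equal levels. The ratio of SHR to WKY for Lbx1 was 1.07 (95% interval 0.688 to 1.66) in the NTS and 1.05 (0.66 to 1.68) in the CVLM, so changes within these intervals were not detectable at this depth. Mean Tlx3 in the NTS was 0.558 CPM in WKY and 0.5629 CPM in SHR. Mean Phox2a in the CVLM was 0.3335 CPM in WKY and 0.2651 CPM in SHR.

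Relatives of the Zic and Pbx genes were read alongside. Of 10 Zic, Pbx, Meis and Pknox genes, all tested, 8 were higher and 1 was lower in the NTS than the RVLM, where 36.4% and 36.5% of all genes were. Their median log2 difference was 0.67, against 0.000584 over all genes. Pknox2 (1.38), Meis1 (0.78) and Pknox1 (0.56) were among those with the smallest adjusted p. In the NTS minus the CVLM, 7 were higher and 1 was lower (34% and 32.4% of all genes). In the CVLM minus the RVLM, 7 were higher and 1 was lower (26.8% and 27.2%). Not all of the 10 passed the filter in every region, and for those that did not the filter partly set the direction.

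Between the strains, Pbx4 was the only relative called, lower in SHR in the CVLM (log2 difference -0.44, adjusted p = 0.0222) and in the RVLM (-0.48, adjusted p = 0.0335). Over all lists of hindbrain identity genes other than the 9, 33 genes were tested for the NTS, 29 for the CVLM and 29 for the RVLM. Of these, 1 was higher and 1 lower in SHR for the NTS, 1 and 1 for the CVLM and 2 and 1 for the RVLM, where 5.54%, 5.94% and 5.76% of all genes were higher in SHR. The genes other than Pbx4 were Lhx9 (0.63) and Tfap2b (-0.54) in the NTS, Tbx3 (0.61) in the CVLM, and Foxp2 (0.81) and Tfap2b (0.78) in the RVLM. Tfap2b, an AP-2 factor of inhibitory and noradrenergic neurons, was thus lower in SHR in the NTS and higher in the RVLM.

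The lists that hold partners of the 9 factors differed between regions by member. Of the inhibitory programme, to which Pax2 belongs, 9 genes were tested, and 6 were higher and 3 lower in the NTS than the RVLM. On the log2 scale Gata3 stood at -3.95, Gata2 at -1.72, Tfap2b at 1.89 and Lhx5 at 1.32. Of the dorsal sensory excitatory programme, to which Tlx3 belongs, 4 genes were tested: 1 was higher in the NTS than the RVLM and 2 were lower, Isl1 (-3.04) and Atoh1 (-1.63). Of the catecholaminergic programme, 3 genes were tested, with 2 higher and 1 lower in the NTS. Of the serotonergic and visceral motor programme, 3 were tested and all 3 were lower. Of the other interneuron factors, 12 were tested, and 9 were higher and 1 lower, with Lhx9 at 4.10 and Nr4a2 at 2.37. Over all these lists together, 24 of 37 genes tested were higher and 9 lower in the NTS than the RVLM, where 36.4% and 36.5% of all genes were. The counts were 23 and 8 for the NTS minus the CVLM (34% and 32.4% of all genes) and 17 and 13 for the CVLM minus the RVLM (26.8% and 27.2%). Some genes of these lists did not pass the filter in every region, so the filter partly set their direction in these counts.

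The genes most like each factor were found by the correlation of mean log2 levels over the 30 groups of region, strain and age, a description with no test, since the groups share rats and regions. Zic4 was most like P2rx2, an ATP-gated channel subunit (r = 0.982), LOC100910996 (0.979) and Mab21l1 (0.978), among 13078 candidates. Zic1 was most like LOC100910996 (0.94), P2rx2 (0.937) and Spint2 (0.937), so P2rx2 and LOC100910996 stood beside both. Pbx3 was most like Gpr160, an orphan receptor (0.948), Pld5 (0.932) and Tmem106c (0.927). Tlx3 was most like Icam5 (0.934), Efnb1 (0.925) and Matn2 (0.921), Lbx1 like Gtpbp1 (0.899), B4galnt4 (0.885) and Tmie (0.879), and Phox2a like Rtn4r (0.85), Snx25 (0.825) and Grik1 (0.811). For Lmx1b, Pax2 and Zic2 the highest r was 0.773, 0.694 and 0.629, all lower than for the other 6 factors.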

How the data were processed

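Total RNA of bilateral punches was sequenced, and the authors deposited 1 table per region of RSEM expected counts, which they made against rn6. Between 4.35% and 5.43% of values per library were not whole, so the counts were rounded. The study's methods also name a batch correction of counts, and whether the tables hold corrected values was not stated.

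Genes whose largest rlog value in a region reached 3.5 were kept, as in the study's methods: 13793 for the NTS, 13408 for the CVLM and 13411 for the RVLM. Strains and ages were compared per region with edgeR 4.0.16 (R 4.3.3): TMM scaling, a robust quasi-likelihood fit of the 10 groups of strain and age, and Benjamini-Hochberg adjustment over all genes kept, with a call at an adjusted p under 0.05. Regions were compared in 1 fit of all libraries with rat as a block, over 14043 genes. Members below the filter in a region were compared between regions in a fit of all genes with a count, and for those below it in all regions no fitted fold is given. Levels are CPM from TMM scaling over all libraries. Correlations used deviations of log2(CPM + 0.5) from the group mean, shuffled within groups, over 48 relations. The programs were tested on simulated data. Nothing in the labels links rats to litters, and no pair of libraries in a group repeated another.

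Alternatives were edgeR's filterByExpr, no filter, DESeq2 1.42.0 size factors and test, limma 3.58.1 voom, the study's own call (adjusted p of at most 0.01 and a fold of at least 2), leaving out each rat, the replicate number as a block, the number that ends the library names as a term, each age alone, and leaving out the 2 libraries with conflicting ages. Those without choroid plexus libraries, the test of strain by age and the neighbours of Pbx3 were added after seeing the data. The 9 members and all gene lists were chosen with earlier results of these data known. All 9 members are named wherever tested. From each list at most 4 genes are named, those of smallest adjusted p, besides markers used to check the regions and paired genes, and 3 genes are named as most like each of 6 members by Pearson's r among genes kept in all regions with a mean of at least 1 CPM. Of the list genes, Foxj1, Prrxl1, Insm1 and Onecut3 had no row used here, and some list genes are counted but not reported here by name. Promoters were searched on both strands.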

Additional observations from a re-analysis of the deposited data

Results flagged for a closer look

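In 4 of the 63 groups of 4 to 6 rats examined, counting each member and region apart, a single library lay far from the rest, where chance flags about 1 in 20 groups. Pbx3 in the NTS of WKY at 10 wk reached 131.3 CPM in replicate 2 (2248 reads), against 89.45 to 94.78 CPM in the other rats. Pbx3 in the RVLM of SHR at 12 wk reached 45.84 CPM in replicate 6 (662 reads), against 27.66 to 34.4 CPM, and this is also the RVLM library in which the summed choroid plexus level was 24.2 CPM. Zic4 in the CVLM of SHR at 16 wk reached 10.07 CPM in replicate 4 (109 reads), against 3.541 to 5.458 CPM. Zic4 in the RVLM of SHR at 16 wk reached 2.228 CPM in replicate 3 (21 reads), against 1.14 to 1.414 CPM.

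The strain difference of Pbx3 differed between regions by a test of the difference itself. It was smaller in size in the NTS than in the RVLM by 0.6161 on the log2 scale (SE 0.0715, edgeR adjusted p = 1.03e-09) and smaller than in the CVLM by 0.7613 (SE 0.0708, adjusted p = 1.98e-13).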

How the results depend on the processing

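No difference called in the main fits changed direction under any alternative run. Some differences that were not called changed sign when 1 rat was left out. For Lbx1 between the strains in the NTS, the log2 difference then ran from -0.0227 to 0.56. Under the study's own call, an adjusted p of at most 0.01 and a fold of at least 2, the members called fell from 1 to 0 for the strain difference over ages in the NTS (Pbx3) and for its difference between the NTS and either ventrolateral region, from 2 to 1 for the NTS minus the CVLM, from 4 to 2 for the CVLM minus the RVLM and from 6 to 1 for single ages in the NTS; for age within a strain, an adjusted p of at most 0.01 left 0 in the CVLM and 0 in the RVLM, from 1 each. In the NTS, age within a strain went from 0 to 1 with DESeq2 size factors and 1 with the DESeq2 test. In the CVLM it went from 1 to 0 with the number that ends the library names as a term and to 0 without the 2 libraries with conflicting ages. In the RVLM it went from 1 to 2 with the DESeq2 test, to 0 with the number as a term and to 2 without the 9 choroid plexus libraries. The shares of all genes called under these alternatives are not given here, so the counts say nothing particular to the members. The cause of these changes was not tested.

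Nothing in the labels says that a replicate number links rats of the strains, and it was not taken as a pairing, since not every same-numbered pair had a correlation of deviations above 0.1: 33 of 54 had (median 0.1685, range -0.374 to 0.585), among them every pair in 4 of 15 sets of region and age, and 56 of 108 libraries were most like the one of their own number. With the replicate number as a block, the only count that moved was age within a strain in the NTS, from 0 to 2 (Zic4 in each strain).

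For the region comparisons each rat was left out in turn in limma voom fits with rat as a block, not in edgeR. The test thus differed from that of the main counts too. NTS minus RVLM gave 4 to 4 members, NTS minus CVLM 2 to 3 and CVLM minus RVLM 4 to 4. These counts include Zic1 and, against the RVLM, Lbx1, which the filter kept only through regions where they were higher. In the main fits the shares of all genes called higher and lower were 36.4% and 36.5% for the NTS minus the RVLM. They were 34% and 32.4% for the NTS minus the CVLM and 26.8% and 27.2% for the CVLM minus the RVLM. Shares for the fits that left out a rat are not given here. For the strain difference between these regions the counts were 1 to 1, 1 to 1 and 0 to 0. In the edgeR fits per region, leaving out each rat gave 1 to 1 for the strain difference over ages in each region. For single ages it gave 5 to 6, 5 to 5 and 5 to 6 in the NTS, CVLM and RVLM. For age within a strain it gave 0 to 2, 0 to 1 and 0 to 2. Pbx3 at 12 wk and Zic4 at 10 wk in the NTS were also not called with each age fitted alone (adjusted p = 0.0838 and 0.14), nor was Zic4 there with no filter (0.0651). Depth limits Zic2 and Lmx1b most, which had a read in fewer than 20 libraries of any region.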
